A study of Mus musculus with 6 samples.

Results

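Grafts of mouse mammary tumour cells with and without the receptor tyrosine kinase AXL were compared for the genes of 7 solute carrier families that supply cells with amino acids. The members were the protein-coding genes of the deposited results table whose symbols belong to the families Slc1a, Slc3a, Slc6a, Slc7a, Slc36a, Slc38a and Slc43a, which gave 60 of the 22740 protein-coding genes in that table. The families were taken whole, so the list also holds carriers of other substrates, namely the creatine, taurine and monoamine transporters of Slc6a and the nucleobase carrier Slc43a3. The AXL KO group held 3 libraries of total RNA from grafts of AXL-/- cells, and the WT group held 3 from grafts of AXL+/+ cells. All 6 came from MMTV-Neu tumour grafts in mice of the FVB strain, so the Neu (ErbB2) oncogene, driven in mammary epithelium by the MMTV promoter, is common to both groups. The labels do not give the age of the animals, the part of Axl that was deleted, the number of cell isolates behind a group, or whether each graft grew in its own animal. The p-values below therefore measure only the spread between these libraries, which may be technical, and if each group is 1 isolate, genotype and isolate cannot be told apart. A graft can also hold host cells, and in such bulk RNA fewer cells of a type and less RNA per cell cannot be told apart.

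The libraries held 28808499 to 32491807 counts in genes in the AXL KO group and 26541009 to 29977133 in the WT group. Axl itself had 1360, 2396 and 1767 counts in the AXL KO libraries and 1906, 1761 and 1507 in the WT libraries, with a log2 fold change of -0.01 ± 0.16 (SE, edgeR adjusted p = 0.978). Counts over the whole gene did not set the groups apart, so every direction below is between libraries as labelled. Epithelial markers were abundant in both groups, with a summed level of 11910 to 14130 CPM (the count scaled to a common library total, after the TMM factor of the library) in the AXL KO libraries and 11810 to 13140 CPM in the WT libraries. Erbb2, the mouse counterpart of the Neu oncogene, held more counts than the other listed markers together, so these sums mostly follow it. Counts per mouse gene do not separate reads of the Neu transgene from those of the animal's own Erbb2. Of 9 tested epithelial markers 2 were higher and 5 lower in AXL KO. Higher were Erbb2 (log2 fold change 0.36, edgeR adjusted p = 0.026) and Esrp1 (0.56). Lower were Epcam (-0.53), Krt18 (-0.60), Krt8 (-0.44), Krt7 (-1.87) and Cldn3 (-0.26), so the summed level does not show that epithelial markers were alike. Of the 10 listed, Krt19 was close to absent, with 13 counts over all 6 libraries.

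Amino acids cross membranes on carriers that either use ion gradients to load the cell or exchange one amino acid for another. Loaders such as Slc38a1, Slc38a2 and the glutamate carriers of SLC1 raise the internal pool of glutamine, alanine or glutamate. Exchangers such as the SLC7 light chains trade part of that pool for leucine, arginine or cystine. Slc1a4 and Slc1a5 of the SLC1 family are exchangers as well. The SLC7 light chains reach the cell surface only as heterodimers with an SLC3 heavy chain, Slc3a2 (4F2hc, CD98) in most tissues and Slc3a1 (rBAT) mainly in kidney and intestine. Some members sit on lysosomes, where they release amino acids and, in the case of Slc38a9, report arginine to the kinase complex mTORC1. Several of these genes are known targets of ATF4, a transcription factor made when amino acids are scarce, which binds DNA at amino acid response elements.

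RefSeq promoter windows, from 250 bases before to 50 bases after a transcription start on GRCm38.p6, were given for 42 of the 60 members. The core of the amino acid response element, spelled TGATGNAA and sought on both strands, occurred in windows of 3 members, or 7.14% of the 42, and in those of 4.51% of the 27025 genes with a window. The 3 members were the cystine carrier Slc7a11 and the carriers Slc7a7 and Slc1a4, whose values are described below. Their windows are shown because these are the only members with this core in a given window, which is too few to compare the shares. Each is written 5′ to 3′ on the strand of the gene, with the core in capitals. The Slc7a11 window lies at chr3:50443564-50443863 (minus strand) and holds 2 copies in opposite directions, at -66 and -47 from the start. The Slc7a7 window, the farthest upstream of those given for that gene, lies at chr14:54417895-54418194 (minus strand), with copies at -141 and -1. The Slc1a4 window lies at chr11:20332664-20332963 (minus strand), with a copy at -4 that reads on the other strand.
Slc7a11: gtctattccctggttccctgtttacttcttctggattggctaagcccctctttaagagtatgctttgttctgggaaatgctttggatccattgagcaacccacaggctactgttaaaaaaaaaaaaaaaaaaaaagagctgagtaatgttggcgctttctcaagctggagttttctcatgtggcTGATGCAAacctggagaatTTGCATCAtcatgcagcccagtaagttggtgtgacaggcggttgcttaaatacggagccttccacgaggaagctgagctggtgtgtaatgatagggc
Slc7a7: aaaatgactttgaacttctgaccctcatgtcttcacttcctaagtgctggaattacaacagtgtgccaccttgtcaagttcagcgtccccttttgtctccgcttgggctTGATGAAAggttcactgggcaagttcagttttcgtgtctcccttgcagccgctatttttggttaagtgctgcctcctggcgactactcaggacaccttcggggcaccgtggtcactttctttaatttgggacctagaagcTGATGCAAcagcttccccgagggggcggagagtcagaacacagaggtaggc
Slc1a4: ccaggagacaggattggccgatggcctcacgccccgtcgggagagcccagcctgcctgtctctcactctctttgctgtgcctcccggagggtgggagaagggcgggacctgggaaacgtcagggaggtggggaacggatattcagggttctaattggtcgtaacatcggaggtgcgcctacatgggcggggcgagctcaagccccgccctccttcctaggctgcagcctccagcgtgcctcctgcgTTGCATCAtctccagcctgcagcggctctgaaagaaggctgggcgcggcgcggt
The antioxidant response element core TGACNNNGC and the E-box CACGTG, each sought on both strands, occurred in windows of 9 of the 42 members, or 21.4% in both cases, against 14% and 8.09% of all genes with a window. The E-box was in windows of 3 of 25 tested members (12%) and 6 of 17 members too low to test. These counts are also too few to compare the shares. A match describes the letters in a window and not a bound site.

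Of the 60 members, 36 had enough counts to be tested and 24 did not. In the AXL KO grafts 6 members were higher and 10 lower at an adjusted p under 0.05 (edgeR quasi-likelihood test, Benjamini-Hochberg adjustment over 14850 genes), and 20 were not called. Higher were Slc38a3, Slc6a14, Slc1a2, Slc43a2, Slc38a10 and Slc36a4. Lower were Slc1a1, Slc7a7, Slc6a17, Slc1a4, Slc7a6, Slc3a2, Slc38a1, Slc36a1, Slc6a8 and Slc38a2. The groups differed widely, and 37.4% of all tested genes were called, 19.1% higher and 18.3% lower, against 44.4% of the tested members, 16.7% higher and 27.8% lower. The 3 AXL KO values lay wholly above or below the 3 WT values in 21 of the 36 members (58.3%) and in 52.1% of all tested genes. These shares of members lie near the background, and no more is read from them. The median log2 fold change was -0.24 over the tested members and 0.00 over all tested genes. The members' median was -0.11 without AXL KO replicate 3 and -0.15 over those averaging a log2 CPM of 2 or more. At least a 2-fold difference was reached by 4 called members, of which Slc38a3 was higher and Slc1a1, Slc7a7 and Slc6a17 were lower. Of the 16 calls, 9 were made in each of the 13 alternative fits that tested the gene, and the same 9 had an adjusted p under 0.01. These were Slc38a3, Slc6a14, Slc43a2 and Slc38a10 among the higher and Slc1a1, Slc7a7, Slc6a17, Slc7a6 and Slc3a2 among the lower. The number of lower members depended on single libraries, with 6 without AXL KO replicate 1, AXL KO replicate 3 or WT replicate 3 and 5 without WT replicate 2. The authors' deposited table, with its sign turned round, has the same 6 members higher at an adjusted p under 0.05 and the same 10 lower, plus Slc6a6.

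**Figure D1:**
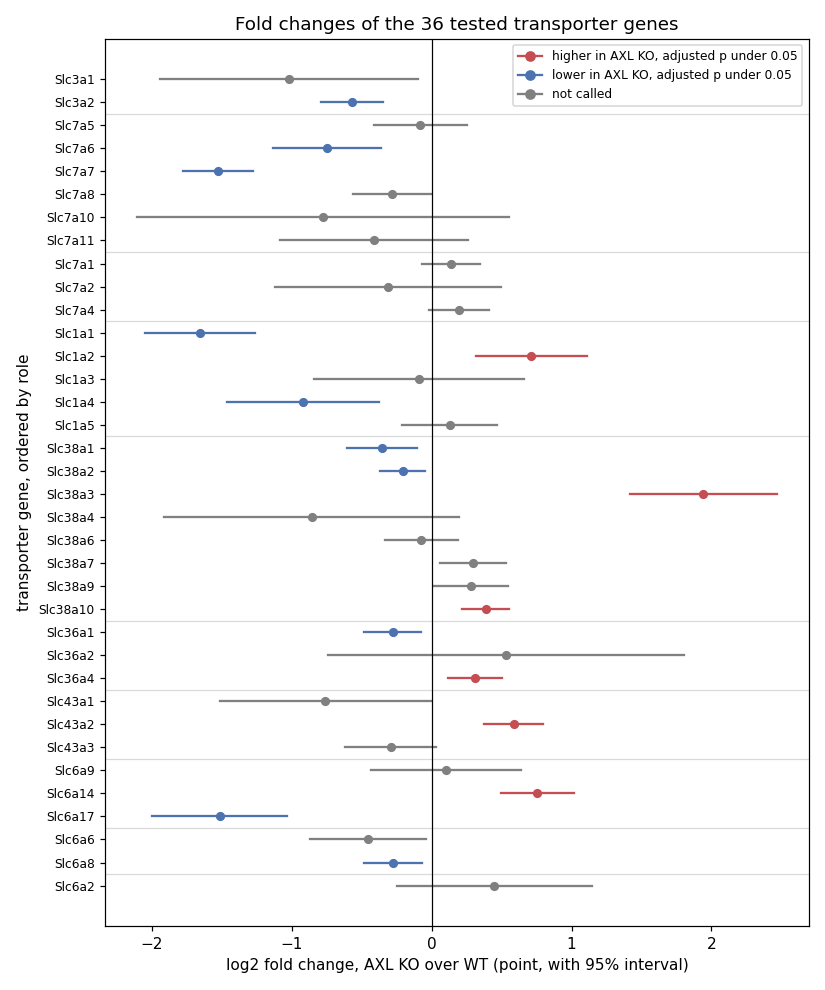
Log2 fold change of AXL KO over WT (x axis) for the 36 tested transporter genes (rows, grouped by role and separated by lines), as a point with its 95% interval from the edgeR fit. Red marks the 6 genes higher and blue the 10 genes lower in AXL KO at an adjusted p under 0.05, grey the 20 not called. Slc38a3 lies farthest to the right at 1.94 and Slc1a1 farthest to the left at -1.66.

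Levels differed between members by orders of magnitude, and they were compared per length, as CPM per kb of annotated exon. In the AXL KO libraries the highest levels were those of Slc38a10 (41.3 ± 2.71 CPM per kb), the leucine exchanger Slc7a5 (39.0 ± 8.65), the glutamine and alanine loader Slc38a2 (36.5 ± 1.68) and the heavy chain Slc3a2 (33.7 ± 2.81, SD, n = 3 each), whose ranges overlapped from one gene to the next. In the WT libraries Slc3a2 came first with 49.96 ± 5.17 CPM per kb, above Slc38a2 (42.1 ± 1.62), Slc7a5 (41.2 ± 3.86), the creatine carrier Slc6a8 (35.8 ± 4.07) and Slc38a10 (31.6 ± 0.92, SD, n = 3 each). There the ranges of Slc38a2 and Slc7a5, and of Slc7a5 and Slc6a8, overlapped, while Slc3a2 lay wholly above Slc38a2. Slc38a10 was thus the first of the 36 in AXL KO and the fifth in WT, and Slc3a2 the fourth in AXL KO and the first in WT. Slc7a7 was the tenth in AXL KO, at 7.25 ± 0.96 CPM per kb, and the sixth in WT, at 20.9 ± 1.62 (SD, n = 3 each). Summed over all 60 members, the level per length was 300, 273 and 282 CPM per kb in the AXL KO libraries and 309, 316 and 315 CPM per kb in the WT libraries, without overlap. Summed without regard to length, it was 1802, 1673 and 1733 CPM in the AXL KO libraries and 1796, 1930 and 1897 CPM in the WT libraries, where the groups overlapped. Exon length counts every annotated isoform, and genes with long alternative exons, such as Slc7a11, are understated on this scale.

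**Figure D2:**
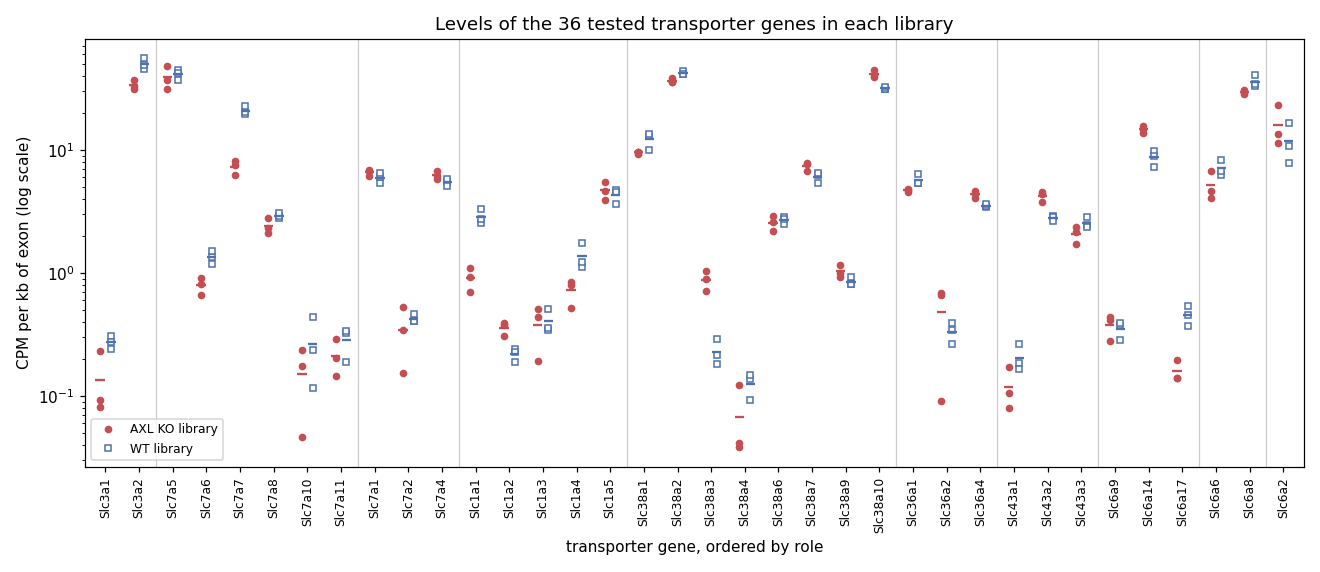
Level of each of the 36 tested transporter genes (x axis, grouped by role) in CPM per kb of exon on a log scale (y axis). Filled red circles are the 3 AXL KO libraries and open blue squares the 3 WT libraries of each gene, and short lines are group means. Slc7a7, Slc1a1 and Slc6a17 have all red points below the blue ones and Slc38a3 and Slc6a14 all above.

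Heavy and light chains of the heterodimers fell in part, with none higher. Slc3a2, the heavy chain that carries most light chains to the surface (GRCm38 chromosome 19, 8706882 to 8723369), had 130, 117 and 110 CPM in the AXL KO libraries and 196, 159 and 174 CPM in the WT libraries. Every AXL KO value was below every WT value. Slc3a2 fell by 0.57 ± 0.10 on the log2 scale (SE, edgeR adjusted p = 0.00236), or 1.48-fold. The other heavy chain, Slc3a1, was barely detected and was not called (log2 fold change -1.02 ± 0.41 SE, adjusted p = 0.0786). Its AXL KO libraries had 6, 6 and 16 counts (0.213, 0.185 and 0.526 CPM) and its WT libraries 15, 21 and 18 counts (0.552, 0.698 and 0.628 CPM), so the groups did not overlap in CPM. It was called lower without AXL KO replicate 3, at -1.64 (adjusted p = 0.0172), and by limma-voom, at -1.14 (adjusted p = 0.0486). Part of its exons overlaps Prepl on the opposite strand, with 56.0 to 56.9 CPM in AXL KO and 51.3 to 63.3 CPM in WT. Slc7a9, the light chain that pairs with Slc3a1 in kidney, had 0 counts in all 6 libraries.

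The light chains Slc7a7 and Slc7a6, which exchange cationic for neutral amino acids and are known as y+LAT1 and y+LAT2, were both lower in AXL KO grafts. Slc7a7 (chromosome 14, 54369442 to 54417780) had 24.8, 26.8 and 20.5 CPM in the AXL KO libraries and 64.8, 67.7 and 75.2 CPM in the WT libraries. The groups stood far apart, with the highest AXL KO library below the lowest WT library by more than the spread within either group. It fell by 1.53 ± 0.11 on the log2 scale (SE, edgeR adjusted p = 2.9e-05), or 2.88-fold. Slc7a6 had 3.05, 4.17 and 3.75 CPM in the AXL KO libraries and 6.15, 5.45 and 6.84 CPM in the WT libraries, without overlap. Its fall was 0.75 ± 0.17 on the log2 scale (SE, edgeR adjusted p = 0.00913). Slc7a7 is also expressed by macrophages, and the macrophage markers summed to 475 to 632 CPM in AXL KO and 466 to 635 CPM in WT, with 1 of 9 tested markers higher and 1 lower; their part in the difference was not tested. The exons of Slc7a7 share 232 bases with Oxa1l on the opposite strand, which was not called (log2 fold change 0.16, adjusted p = 0.166).

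Slc7a5 (LAT1), the exchanger that brings in leucine and other large neutral amino acids, did not pass the test. It had 179, 116 and 138 CPM in the AXL KO libraries and 165, 137 and 157 CPM in the WT libraries, and the groups overlapped. The 95% interval of the log2 fold change ran from -0.41 to 0.25 around -0.08 (edgeR adjusted p = 0.698). Slc7a8 (LAT2), with a similar but wider substrate range, had 11.6, 13.9 and 10.6 CPM in AXL KO and 14.1, 14.5 and 15.4 CPM in WT (log2 fold change -0.29 ± 0.12 SE, adjusted p = 0.0981). It passed only without AXL KO replicate 2, the highest AXL KO library, where the log2 fold change was -0.40 (adjusted p = 0.0266). Slc7a11 (xCT), which takes up cystine in exchange for glutamate and so feeds glutathione synthesis, was low, at 2.83, 4.05 and 2.04 CPM in AXL KO and 4.53, 2.63 and 4.74 CPM in WT (log2 fold change -0.41 ± 0.30 SE, adjusted p = 0.305). Its promoter window shown above carries 2 response element cores, and its interval, from -1.08 to 0.26, covers both a 2-fold fall and no difference. Slc7a10, a carrier of small neutral amino acids, had 3 to 25 counts in a library and was not called.

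The same values can be set against the heavy chain of the same library. These ratios restate the falls of Slc3a2 and Slc7a7 and are no further evidence, since Slc7a5 itself was not called. Per length, Slc7a5 amounted to 132%, 94.9% and 119% of Slc3a2 in the AXL KO libraries and 80.1%, 81.7% and 85.7% in the WT libraries. Slc7a7 amounted to 20.3%, 24.4% and 19.8% of Slc3a2 in AXL KO and 35.2%, 45.2% and 46.0% in WT. Neither pair of ranges overlapped. Of the 6 detected light chains together, Slc7a5 made up 81.6%, 71.96% and 79.9% in AXL KO and 64.5%, 59.7% and 60.4% in WT, and Slc7a7 made up 12.6%, 18.5% and 13.4% in AXL KO and 28.4%, 33.0% and 32.4% in WT. The 6 light chains summed to 161%, 132% and 148% of Slc3a2 in AXL KO and 124%, 137% and 142% in WT, where the groups overlapped. These ratios compare transcripts, and with 3 libraries against 3 an exact permutation test cannot go below p = 0.1.

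**Figure D3:**
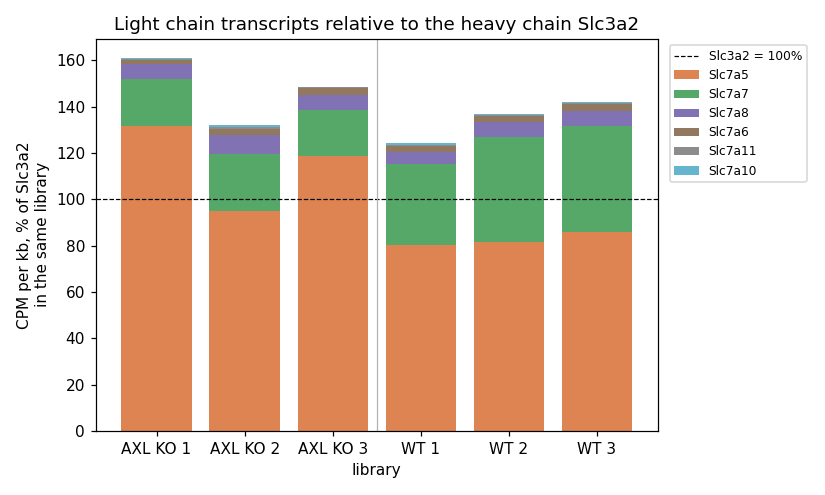
Level per length of 6 light chain genes as a percentage of Slc3a2 in the same library (y axis, stacked bars), for the 3 AXL KO and 3 WT libraries (x axis), with the dashed line at the level of Slc3a2. The Slc7a7 part spans 19.8% to 24.4% in AXL KO and 35.2% to 46.0% in WT, and the Slc7a5 part is larger in every AXL KO bar.

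The SLC1 carriers of glutamate and of small neutral amino acids went both ways. Slc1a1 (EAAT3, chromosome 19, 28835049 to 28913960), which takes up glutamate, aspartate and cysteine, had 7.69, 9.08 and 5.78 CPM in the AXL KO libraries and 21.0, 22.8 and 27.4 CPM in the WT libraries. No AXL KO library came near the WT range. Slc1a1 fell by 1.66 ± 0.17 on the log2 scale (SE, edgeR adjusted p = 0.000198), or 3.15-fold, the largest fall among the tested members. It shares 2631 exon bases with 4430402I18Rik on the opposite strand, a gene counted at 0.992 to 1.58 CPM in AXL KO and 1.29 to 1.36 CPM in WT. Slc1a4 (ASCT1), an exchanger of serine and alanine whose promoter window is shown above, had 3.12, 3.34 and 2.04 CPM in AXL KO and 4.38, 6.85 and 4.85 CPM in WT. It fell by 0.92 ± 0.24 on the log2 scale (SE, edgeR adjusted p = 0.0162), a call lost without AXL KO replicate 3 (adjusted p = 0.0536) or WT replicate 2 (adjusted p = 0.0524).

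Slc1a2 (EAAT2), best known as the glutamate carrier of astrocytes, was higher at a low level, with 4.99, 5.16 and 4.04 CPM in the AXL KO libraries and 3.17, 3.02 and 2.48 CPM in the WT libraries. Its log2 fold change was 0.71 ± 0.18 (SE, edgeR adjusted p = 0.0126), and without WT replicate 3 the adjusted p was 0.0528. Slc1a5 (ASCT2), an exchanger through which many tumour cells take up glutamine, was not called. It had 23.1, 19.3 and 16.2 CPM in AXL KO and 19.6, 15.1 and 18.8 CPM in WT, with a 95% interval of the log2 fold change from -0.21 to 0.47 (adjusted p = 0.522). Of the members on the chromosome of Axl it lies nearest to that gene, at a distance of 8.96 Mb. Slc1a3 (EAAT1), a glutamate carrier of glia, was not called (log2 fold change -0.09 ± 0.33 SE), with 1.64 CPM in AXL KO replicate 3 and 2.96 to 4.38 CPM in the other 5 libraries.

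Among the SLC38 carriers, which couple neutral amino acids to sodium, 2 of 8 tested members rose and 2 fell. Slc38a3 (SNAT3, chromosome 9, 107650634 to 107669530), a carrier of glutamine and histidine known from liver, kidney and brain, had 3.79, 4.70 and 5.45 CPM in the AXL KO libraries and 0.957, 1.13 and 1.54 CPM in the WT libraries. The lowest AXL KO library exceeded the highest WT library more than 2-fold. Slc38a3 rose by 1.94 ± 0.23 on the log2 scale (SE, edgeR adjusted p = 0.000407), or 3.84-fold, the largest rise among the tested members. Slc38a10, an abundant and less studied member, had 284, 250 and 261 CPM in AXL KO and 199, 200 and 210 CPM in WT. It rose by 0.38 ± 0.07 on the log2 scale (SE, edgeR adjusted p = 0.00413), and Gm11769, which shares 367 exon bases with it on the opposite strand, stayed under 2 CPM in all 6 libraries.

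The system A loaders Slc38a1 and Slc38a2 (SNAT1 and SNAT2), which concentrate glutamine and alanine in the cell, were slightly lower. Slc38a2 had 339, 314 and 313 CPM in the AXL KO libraries and 363, 388 and 364 CPM in the WT libraries, the highest counts of any member in both groups. It fell by 0.21 ± 0.07 on the log2 scale (SE, edgeR adjusted p = 0.0483), and 5 of the 6 fits that left out a library did not call it. Slc38a1 had 167, 160 and 166 CPM in AXL KO and 172, 224 and 234 CPM in WT, with WT replicate 1 close to the AXL KO libraries. It fell by 0.35 ± 0.11 on the log2 scale (SE, edgeR adjusted p = 0.0341), a call that held in 1 of the 6 fits without a library, that without WT replicate 1.

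The lysosomal members Slc38a7, which exports glutamine and asparagine, and Slc38a9, the arginine sensor, each had AXL KO values above all WT values. Neither was called, Slc38a7 by a narrow margin. Slc38a7 had 31.8, 27.9 and 32.5 CPM in AXL KO and 22.2, 25.8 and 27.1 CPM in WT (log2 fold change 0.30 ± 0.10 SE, adjusted p = 0.0501). Slc38a9 had 19.5, 15.6 and 16.8 CPM in AXL KO and 13.7, 15.5 and 13.5 CPM in WT (log2 fold change 0.28 ± 0.12 SE, adjusted p = 0.0887). Both passed without AXL KO replicate 2, at adjusted p = 0.0294 and 0.0497. Of the 13 alternative fits, 2 called Slc38a7 and 1 called Slc38a9. Slc38a6 was not called, with an interval from -0.34 to 0.19, and Slc38a4, at 5 to 18 counts in a library, was called only without AXL KO replicate 2.

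The SLC36 and SLC43 families each held a member that rose. Slc43a2 (LAT4), a facilitative carrier of branched-chain amino acids and phenylalanine (chromosome 11, 75531694 to 75577575), had 44.1, 37.8 and 45.6 CPM in the AXL KO libraries and 29.4, 28.8 and 26.8 CPM in the WT libraries, without overlap. It rose by 0.59 ± 0.09 on the log2 scale (SE, edgeR adjusted p = 0.00162), or 1.5-fold. The other branched-chain carrier of that family, Slc43a1 (LAT3), had 14 to 32 counts in AXL KO and 27 to 41 in WT (log2 fold change -0.76 ± 0.33 SE, adjusted p = 0.102). Without AXL KO replicate 2 it was called lower, at -1.13 (adjusted p = 0.0284). The nucleobase carrier Slc43a3 was not called (log2 fold change -0.29 ± 0.14 SE, adjusted p = 0.14). Slc36a4 (PAT4), a carrier of proline and tryptophan, had 30.3, 28.5 and 26.6 CPM in AXL KO and 22.3, 22.7 and 24.0 CPM in WT. It rose by 0.31 ± 0.09 on the log2 scale (SE, edgeR adjusted p = 0.021), a call lost without AXL KO replicate 1 (adjusted p = 0.0946). Slc36a1 (PAT1), which moves small neutral amino acids with protons across lysosomal and plasma membranes, had 27.0, 26.7 and 25.8 CPM in AXL KO and 30.2, 35.8 and 30.5 CPM in WT. It fell by 0.28 ± 0.09 on the log2 scale (SE, edgeR adjusted p = 0.0384), and 5 of the 6 fits without a library did not call it. Slc36a2, a proline and glycine carrier, differed widely within a group: the AXL KO libraries had 61, 73 and 9 counts and the WT libraries 35, 26 and 32. It was called higher only without AXL KO replicate 3, at 1.03 (adjusted p = 0.0209).

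None of the cationic amino acid transporters was called. Slc7a1 (CAT1), the main route for arginine and lysine into many cells, had 77.5, 70.1 and 79.4 CPM in the AXL KO libraries and 62.4, 69.0 and 74.8 CPM in the WT libraries (log2 fold change 0.14, 95% interval from -0.07 to 0.34, edgeR adjusted p = 0.258). The interval leaves room for a rise of up to 0.34 but not for a 2-fold change in either direction. Slc7a4, a relative for which no transport is established, had 28.1, 24.2 and 25.7 CPM in AXL KO and 23.0, 24.0 and 21.0 CPM in WT (adjusted p = 0.13). Slc7a2 (CAT2), an arginine carrier known from liver and activated macrophages, had 43 to 156 counts in AXL KO and 106 to 115 in WT, so its AXL KO libraries spread wider than the groups differed.

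In the SLC6 family, which uses sodium and chloride, the amino acid carriers Slc6a14 and Slc6a17 moved in opposite directions. Slc6a14 (chromosome X, 21714896 to 21742355), which accepts nearly all neutral and cationic amino acids and is raised in several human carcinomas, had 50.8, 53.7 and 47.0 CPM in the AXL KO libraries and 33.9, 25.2 and 30.6 CPM in the WT libraries. All AXL KO libraries were above all WT libraries. It rose by 0.76 ± 0.11 on the log2 scale (SE, edgeR adjusted p = 0.00128), or 1.69-fold. Slc6a17, a carrier of neutral amino acids on synaptic vesicles, had 1.45, 1.45 and 2.004 CPM in AXL KO and 3.83, 4.72 and 5.51 CPM in WT. It fell by 1.52 ± 0.21 on the log2 scale (SE, edgeR adjusted p = 0.000908), or 2.86-fold, from a low level. Slc6a9 (GlyT1), the glycine carrier of glia and red cell precursors, was not called, with an interval from -0.43 to 0.64. Erythroid markers differed strongly in the same libraries, at 152 to 237 CPM in AXL KO and 647 to 1022 CPM in WT, and 6 of 6 tested ones were lower; their part in the Slc6a9 values was not tested.

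Carriers of other substrates in the SLC6 family were less clearly apart. Slc6a8, which imports creatine, had 160, 149 and 153 CPM in the AXL KO libraries and 171, 211 and 178 CPM in the WT libraries. It fell by 0.28 ± 0.09 on the log2 scale (SE, edgeR adjusted p = 0.0397), and 5 of the 6 fits without a library did not call it. Slc6a6, which imports taurine, had 34.4, 57.4 and 39.2 CPM in AXL KO and 53.1, 69.8 and 57.2 CPM in WT, with AXL KO replicate 2 inside the WT range (log2 fold change -0.46 ± 0.18 SE, adjusted p = 0.0782). Without that library Slc6a6 fell by 0.70 (adjusted p = 0.00389). Without AXL KO replicate 1, AXL KO replicate 3 or WT replicate 2 the fall was 0.31, 0.38 or 0.33 (adjusted p = 0.232, 0.211 or 0.219). Of the 13 alternative fits, 4 called it. Slc6a2, the noradrenaline transporter of sympathetic neurons, was among the more abundant members, with 71.0, 83.9 and 147 CPM in AXL KO and 49.2, 104 and 68.1 CPM in WT. The Slc6a2 libraries spread about as widely within a group as between the groups (log2 fold change 0.45, 95% interval from -0.25 to 1.15, adjusted p = 0.28).

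The other 24 members were too low to test. No read was counted in any library for 7 of them, among which were the light chains Slc7a9 and Slc7a12 and the SLC38 member Slc38a8. A count of 0 allows up to 3 counts, or 0.0923 to 0.104 CPM in an AXL KO library and 0.1 to 0.113 CPM in a WT library, with counting error only. The other 17 had 1 to 48 counts over all 6 libraries. Slc7a14, a relative of the cationic carriers, was the highest of these with 48 counts, followed by Slc38a11 with 34, the renal carrier Slc6a18 with 28 and the serotonin transporter Slc6a4 with 17. The dopamine transporter Slc6a3 had 10 counts. Slc38a5, a glutamine carrier of the same family as Slc38a3, had 2 counts.

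Other genes of amino acid supply and response were taken from lists, and their shares of calls are read against the 37.4% called over all tested genes. Of 25 tested amino acid response (ATF4) genes 2 rose and 8 fell (40% called, near that background, median log2 fold change -0.15). Atf4 itself had 141, 113 and 118 CPM in the AXL KO libraries and 204, 202 and 208 CPM in the WT libraries, a fall of 0.72 ± 0.09 on the log2 scale (SE, edgeR adjusted p = 0.000519). Atf5, a related factor, and Shmt2, which makes glycine and one-carbon units in mitochondria, fell by 0.63 and 0.42 (adjusted p = 0.000475 and 0.00387). Nupr1, a stress-induced nuclear protein gene, rose by 0.62 (adjusted p = 0.00495). Of 20 tRNA synthetases 1 rose and 5 fell (30% called, median -0.03), among them Tars, Vars and Sars for threonine, valine and serine, which fell by 0.41, 0.41 and 0.29, while Qars, for glutamine, rose by 0.34.

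Genes of amino acid sensing and of amino acid metabolism went both ways. Of 29 tested mTORC1 and sensing genes 8 rose and 3 fell (37.9% called, near that background, median 0.04). Rragd, a Rag GTPase that recruits mTORC1 to lysosomes, had 75.1, 70.3 and 79.9 CPM in the AXL KO libraries and 31.0, 42.1 and 45.0 CPM in the WT libraries, a rise of 0.93 ± 0.13 (log2, SE, edgeR adjusted p = 0.000956). Sesn3, a sestrin, and Flcn, which acts on the Rag GTPases, rose by 0.64 and 0.43, and Tfeb, a transcription factor of lysosome genes, fell by 0.52. Of 27 tested enzymes of amino acid metabolism 5 rose and 7 fell (44.4% called, median -0.09). Arg1, which breaks down arginine and is also a macrophage gene, had 329, 262 and 274 CPM in AXL KO and 162, 142 and 118 CPM in WT, a rise of 1.04 ± 0.13 (log2, SE, adjusted p = 0.000483). The alanine transaminase gene Gpt rose by 1.38, and Odc1, which starts polyamine synthesis, and the glutaminase Gls2 fell by 0.91 and 1.69. Of 15 tested carriers outside the 7 families 4 rose and 1 fell (33.3% called, median 0.13), among them the lysosomal cystine exporter Ctns and the mitochondrial glutamate carrier Slc25a22, which rose by 0.49 and 0.62, the lysosomal Slc15a3, which rose by 0.56, and Mfsd12, needed for cysteine import into melanosomes and lysosomes, which fell by 0.48.

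**Figure D4:**
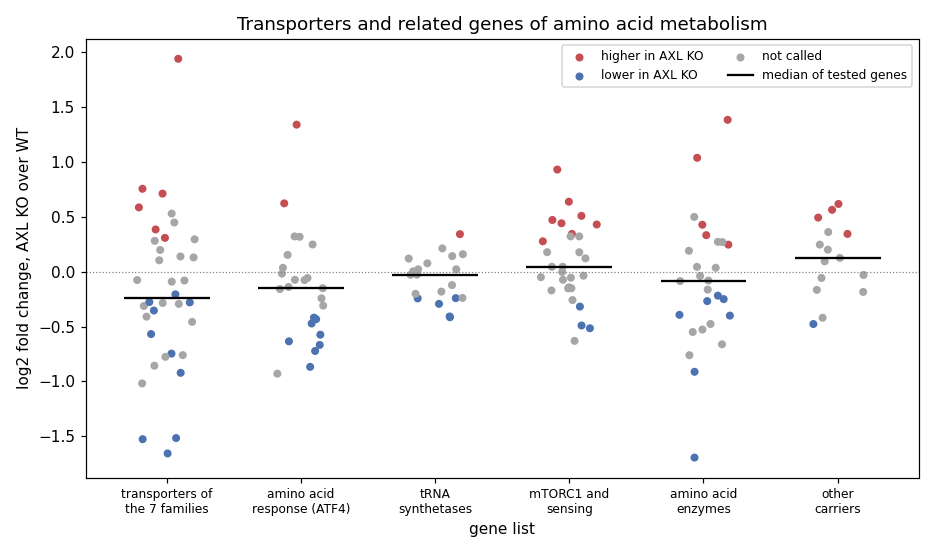
Log2 fold change of AXL KO over WT (y axis) for each tested gene of the transporter families and of 5 related lists (x axis), spread sideways for legibility, with the median of each list as a black line. Red and blue points passed an adjusted p under 0.05 upward and downward and grey points did not. The medians lie between -0.24 for the transporters and 0.13 for the other carriers, close to 0.

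Markers of other cell types differed between the same libraries. Endothelial markers summed to 198 to 260 CPM in AXL KO and 335 to 376 CPM in WT, with 9 of 10 lower, and pericyte markers to 245 to 334 CPM in AXL KO and 484 to 544 CPM in WT, with 7 of 7 lower. T cell markers summed to 23.0 to 25.0 CPM in AXL KO and 8.65 to 12.1 CPM in WT, with 8 of 9 higher, and NK and cytotoxic markers to 28.2 to 39.8 CPM in AXL KO and 2.21 to 4.52 CPM in WT, with 7 of 7 higher. Fibroblast and adipocyte markers were not called in any case (0 of 8 and 0 of 5), with 1405 to 2343 and 50.7 to 142 CPM in AXL KO and 1856 to 3106 and 112 to 196 CPM in WT. Muscle markers summed to 16.9 to 20.1 CPM in AXL KO and 5.37 to 7.21 CPM in WT, with 1 of 2 tested ones higher. The higher one was Mb, at a mean of 17.1 CPM in AXL KO and 5.80 CPM in WT, so this sum mostly follows Mb. Ckm, at means of 0.745 CPM in AXL KO and 0.419 CPM in WT, was not called. Neutrophil markers summed to 4.63 to 7.79 CPM in AXL KO and 3.89 to 9.17 CPM in WT, with 1 of 4 tested ones lower. Acta1, Myh4 and Tnnt3 of the muscle list and Ly6g and Retnlg of the neutrophil list had 1 to 20 counts over all 6 libraries. The part of these cells in the transporter differences was not tested.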

How the data were processed

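Total RNA from tumour grafts was sequenced in 6 libraries. Per the submitters' processing notes, CASAVA 1.8, TopHat2 2.0.10, HTSeq 0.5.3 and DESeq2 1.4.5 were used with GRCm38. Their settings and the use of strand are not stated in the sources at hand, so reads of overlapping genes on opposite strands cannot be told apart. The deposited files hold raw counts per gene. Rows that name no gene were left out: reads that did not align uniquely were 25.7% to 29.0%, in no gene 4.41% to 6.88% and ambiguous 0.717% to 1.09%. The deposited table of the authors holds a signal (count over 1 size factor per library), log2 fold changes of WT over AXL KO, their test score, and p-values. Within groups the libraries differed by more than sampling noise (chi-square per gene 11.1 to 29.6).

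Genes passing filterByExpr (minimum count 10, total 15; 14850 of 21716) were fitted on group by quasi-likelihood in edgeR 4.0.16 (R 4.3.3), with TMM factors (0.98 to 1.02) and 4 residual degrees of freedom. Benjamini-Hochberg adjustment ran over all tested genes, threshold 0.05. Positions and exon lengths are from GENCODE M21 and promoters from RefSeq. Levels are mean ± SD over 3 libraries. Members and lists were chosen with earlier results of these data known. Every member may be named, although not all are reported singly here, and up to 4 genes of each related list by smallest p. Only the edgeR fit and its calls were tried on simulated counts, with a far smaller share of changed genes than was called here. Alternatives were DESeq2 1.42.0, its size factors, upper-quartile factors, limma-voom (limma 3.58.1), no filter, a mean log2 CPM of at least 2, a replicate block, each library left out, and an adjusted p of 0.01.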

Additional observations from a re-analysis of the deposited data

How the results depend on the processing

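Other scalings moved the median of all genes by less than 0.1 and kept the 16 calls, as did DESeq2 and limma-voom, which had 11 lower. Without a filter 7 members were higher and 9 lower, and where only genes averaging a log2 CPM of 2 or more are tested 4 and 9, with a median of -0.15. An adjusted p of 0.01 left 4 higher and 5 lower. Leaving out 1 library gave 5 to 8 higher and 5 to 10 lower, with medians of the log2 fold changes from -0.26 to -0.11. Over these fits the log2 fold changes of some members not called crossed 0: Slc1a3 from -0.35 to 0.23, Slc1a5 from -0.00267 to 0.25, Slc6a9 from -0.0229 to 0.28, Slc7a2 from -0.78 to 0.042, Slc7a5 from -0.26 to 0.0549 and Slc38a6 from -0.17 to 0.027. Same-numbered libraries did not deviate together (correlations -0.0578, -0.125 and 0.0877), and differently numbered ones ranged from -0.21 to 0.223. With 3 libraries in a group this shows no sign of pairing but cannot exclude it. A replicate block gave 6 higher and 7 lower, without Slc6a8, Slc36a1, Slc38a1 and Slc38a2 and with Slc6a6. Members under about 1 CPM have few counts, and depth limits what their tests can show. The causes were not tested.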
